A study of Rattus norvegicus with 20 samples.

Results

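The corticotropin releasing hormone (CRH) system and the neighbouring hypothalamic peptides were followed in the arcuate nucleus of young female rats as a set of 10 genes: *Crh*, *Ucn*, *Crhr1*, *Crhr2*, *Crhbp*, *Oxt*, *Avp*, *Hcrt*, *Pmch* and *Trh*. The members were the probes that are not controls and that carry one of these gene names, which gave 12 of the 30367 probes and 10 of the 25926 named genes on the array. *Crh* and *Crhr2* each had 2 probes and the other 8 genes had 1. A further probe, whose description names oxytocin-neurophysin, carries another gene name. It was well above background in 4 of 20 animals and was not used. A gene was tested when at least 1 of its probes stood well above its local background in all 4 animals of at least 1 condition, and 8 of the 10 genes passed (all but *Ucn* and *Crhr2*), among 17086 genes tested in all.

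CRH is the peptide with which the paraventricular nucleus starts the stress response: it reaches the pituitary and releases ACTH, which drives the adrenal glucocorticoids, and these in turn hold down CRH. Urocortin, encoded by *Ucn*, is a related peptide that binds the same receptors, CRHR1 and CRHR2, while the CRH-binding protein, encoded by *Crhbp*, holds the free peptide. CRH is also known to excite neurons of the immature brain, and ACTH is a standard treatment of infantile spasms. The arcuate nucleus lies at the base of the hypothalamus, below the paraventricular nucleus, where the neurons of oxytocin, vasopressin, CRH and TRH are found. It lies medial to the lateral hypothalamus, where those of orexin (*Hcrt*) and melanin-concentrating hormone (*Pmch*) are found. These transcripts were therefore also read as a check on dissection, and whether their levels follow the dissection was not tested.

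The 20 Sprague-Dawley females were profiled at postnatal day 15, 4 per condition. SNS rats were born to mothers injected with saline, had no spasms and received saline after birth. The mothers of all other rats had received 2 injections of betamethasone, a synthetic glucocorticoid, at 0.4 mg/kg on gestational day 15. BNS rats had no spasms and received saline. BYS, BYA and BYP rats had spasms triggered with N-methyl-D-aspartate (NMDA, a glutamate receptor agonist) on postnatal days 12, 13 and 15. They received saline (BYS), ACTH (BYA) or PMX53 (BYP), an antagonist of the complement receptor C5ar1, on days 13, 14 and 15 by the sample labels. The paper instead has treatment begin on day 12, once the first spasms had ended. The labels give no litter for an animal, so animals of a condition may be littermates and the p-values measure the spread between these animals only.

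RNA of 2 animals of a condition shared each of 9 two-colour arrays, and the labels place BYA replicates 3 and 4 on 2 arrays whose other channel belongs to another series. For BYA replicate 3 the channel was taken from its dye label, which the order of names on that array does not bear out. If the label is wrong, the values given for BYA replicate 3 are those of the other animal there, named as an SNS male. No 2 conditions shared a slide, and BYA replicate 3 was alone on another, so slide and condition cannot be told apart. The median ratio of signal to local background was 6.94 in SNS, 7.43 in BYA, 9.06 in BYP, 16.02 in BNS and 15.99 in BYS, and the share of spots well above background, as the median of 4 animals, ran from 62.4% in SNS to 79.4% in BYS. Markers of the arcuate nucleus such as *Pomc*, *Agrp*, *Npy*, *Ghrh* and *Kiss1* passed the filter in 12 of 12 cases. This was not particular to the arcuate nucleus, as 17086 of 25926 named genes passed. Markers passed in 4 of 4 cases for the ventromedial nucleus and for the thalamus. They passed in 7 of 8 for the paraventricular and supraoptic nuclei and in 3 of 5 for the suprachiasmatic nucleus. Of 8 pituitary markers 3 passed (*Cga*, *Lhb* and *Pitx1*), and *Gh1*, *Prl*, *Tshb*, *Fshb* and *Pou1f1* did not. Of 3 markers of cortex and hippocampus, *Neurod6* and *Emx1* passed and *Slc17a7* did not. Levels are log2 intensities after background correction and quantile normalization, and they compare animals for 1 gene, not genes with each other.

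Among the ligands of the CRH system, *Crh* was measured on 2 probes and varied more between animals of a condition than between conditions. The levels were 9.97, 9.56, 7.67 and 9.11 in SNS replicates 1 to 4, 9.39, 8.45, 8.67 and 9.18 in BNS, and 9.59, 9.22, 8.66 and 8.82 in BYS. They were 9.29, 8.31, 8.83 and 9.04 in BYA and 9.17, 9.22, 8.39 and 9.43 in BYP. SNS held both the lowest and the highest of the 20 animals, a 4.95-fold span, and every condition overlapped every other. In bulk tissue, fewer cells that make a peptide and less of its RNA per cell cannot be told apart. The 2 *Crh* probes, 1 of them printed in 10 spots, gave the same order of animals to a large extent (Pearson r = 0.97 and Spearman rho = 0.94 over 20 animals, as deviations from condition means). SNS replicate 3, the lowest animal, was the 1 animal of SNS in which neither probe was well above background.

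The order of the condition means of *Crh* was SNS (9.08 ± 1.01, SD, n = 4), BYS (9.07 ± 0.42), BYP (9.05 ± 0.46), BNS (8.92 ± 0.44) and BYA (8.87 ± 0.42), and no neighbours in this order differed beyond their spread (limma adjusted p from 0.896 to 0.997). *Crh* did not pass the test over the 5 conditions (limma F test, adjusted p = 0.976). The standard error of each *Crh* difference was 0.39 on the log2 scale, and the difference between BNS and SNS was -0.16 with a 95% interval from -0.97 to 0.65. The single *Ucn* probe was well above background in 6 of 20 animals, in none of BYA or BYP, and *Ucn* was not tested.

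Of the 2 receptors, *Crhr1*, the G protein-coupled receptor with the higher affinity for CRH, was lower in all 4 betamethasone conditions than in SNS. Its probe lies on chromosome 10 (rn4, chr10:93353354-93353413, plus strand) and is printed because every call on this gene rests on 1 spot of it:
Crhr1 probe: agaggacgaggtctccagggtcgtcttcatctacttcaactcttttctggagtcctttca
The levels were 8.42, 7.90, 9.02 and 7.98 in SNS replicates 1 to 4. They were 7.76, 7.76, 7.53 and 7.58 in BNS, 7.73, 7.72, 7.68 and 7.67 in BYS, 8.00, 7.88, 7.64 and 7.56 in BYA, and 7.82, 7.68, 7.71 and 7.73 in BYP. All SNS animals lay above all BNS, BYS and BYP animals, and only BYA replicate 1 reached into the SNS range.

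*Crhr1* fell by 0.67 (SE 0.16) on the log2 scale, 1.59-fold, in BNS against SNS (limma adjusted p = 0.00515). The fall against SNS was 0.63 in BYS (adjusted p = 0.00813), and for BYA and BYP the log2 differences were -0.56 (adjusted p = 0.0139) and -0.59 (adjusted p = 0.0108). These comparisons share the SNS animals. It was the 1 member of 8 that passed the limma F test over the 5 conditions (adjusted p = 0.0169), where 30.3% of all genes passed. The order of the means was SNS (8.33 ± 0.51, n = 4), BYA (7.77 ± 0.20), BYP (7.74 ± 0.06), BYS (7.70 ± 0.03) and BNS (7.66 ± 0.12), and no neighbours below SNS differed (adjusted p from 0.954 to 0.999).

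The *Crhr1* probe was dim. It was well above background in 11 of 20 animals, namely 2 of SNS, 2 of BNS, 4 of BYS, 1 of BYA and 2 of BYP, and its local background in SNS replicate 3, the highest animal, was 120.5 against 26 to 65 in the other 19 channels. When the channels were brought to a common median and not quantile normalized, the BYP difference from SNS was -0.01 (adjusted p = 0.984), that of BNS was -0.37 (adjusted p = 0.401) and that of BYA was -0.52 (adjusted p = 0.316). That of BYS was still called (-1.04, adjusted p = 0.0403), and *Crhr1* was called in 1 other comparison, BYP minus BYS (1.03, adjusted p = 0.0459). With array as a random block, since both animals of an array may vary together, the BNS and BYA calls remained (adjusted p = 0.0390 and 0.0494) and those of BYS and BYP were lost (adjusted p = 0.0540 and 0.0635). With the processed signals of the extraction software the BNS difference was -1.78 (adjusted p = 0.0570). The methods' t-test, which allows unequal variances, did not call *Crhr1* in BNS, BYS, BYA or BYP against SNS, even at its own unadjusted threshold. The part of the background and of the dimness of the SNS arrays in these values was not tested. *Crhr2*, the receptor that urocortins favour, was well above background in 7 and 8 of 20 animals on its 2 probes and was not tested. These were most often BYS animals (3 of 4 on each probe), as for *Ucn* (3 of 4). BYS also had the highest share of all spots well above background (median 79.4%).

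*Crhbp*, the secreted protein that binds CRH, passed no test on these levels. Its levels were 8.56, 8.41, 8.15 and 8.16 in SNS replicates 1 to 4, 8.64, 8.49, 8.74 and 8.35 in BNS, and 8.55, 8.77, 8.36 and 8.33 in BYS. They were 8.02, 8.36, 8.79 and 7.91 in BYA and 8.50, 8.23, 8.33 and 8.48 in BYP. The ranges overlapped in every pair, and BYA held both the lowest and the highest animal. The highest was BYA replicate 3, whose channel is uncertain. The smallest adjusted p among its 10 comparisons was 0.276, for BNS against SNS. With the processed signals of the extraction software, *Crhbp* was called higher there (0.98, adjusted p = 0.0347), the 1 member called with those signals. Its probe lies on chromosome 2 (rn4, chr2:25802015-25802074, minus strand), was well above background in 17 of 20 animals, and is shown beside the receptor's as the other dim probe of the CRH system that was tested:
Crhbp probe: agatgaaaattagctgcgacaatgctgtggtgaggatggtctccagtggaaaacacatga

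**Figure D1:**
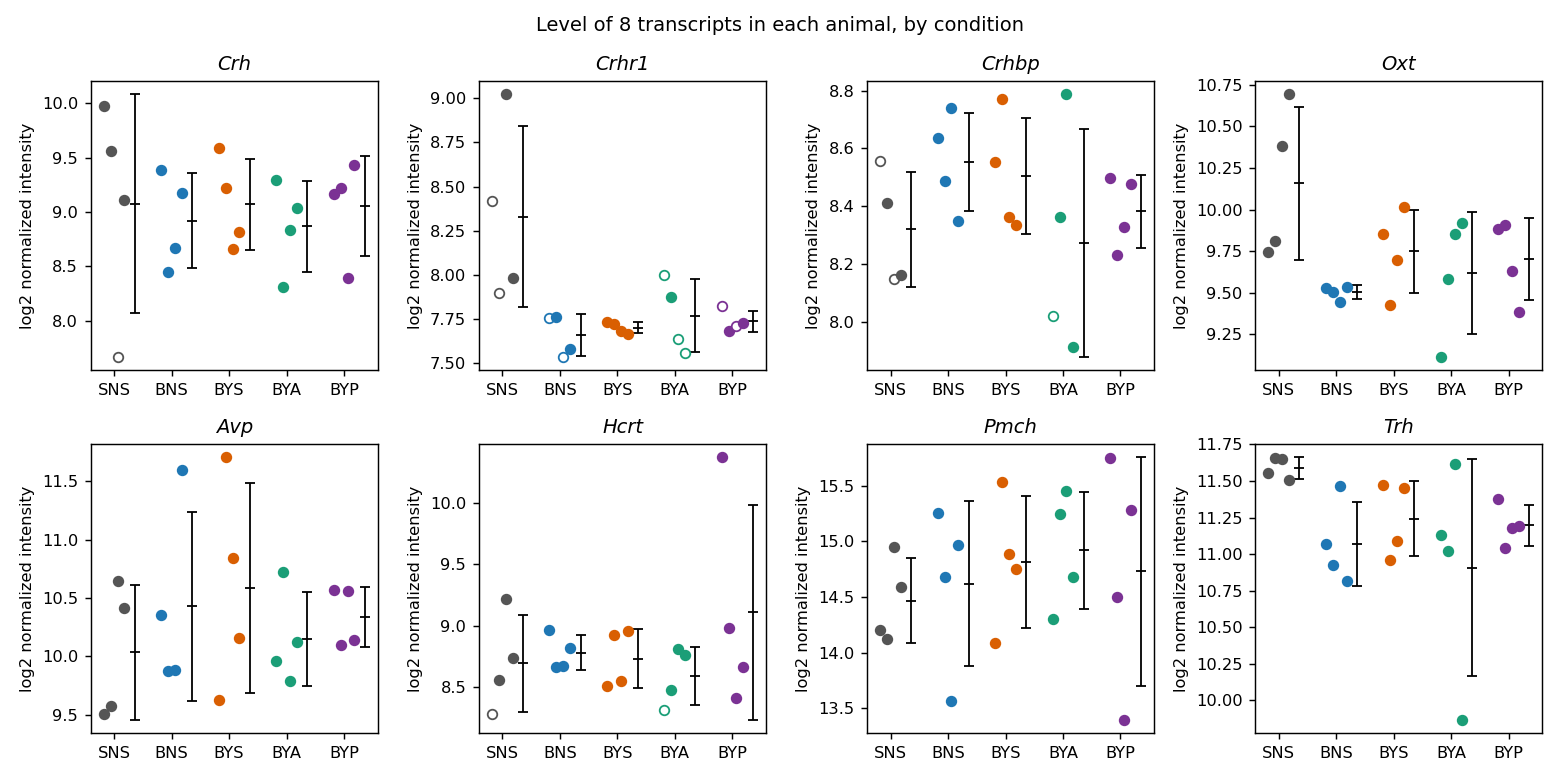
Log2 normalized intensity (vertical axis, scaled for each gene) of the 8 tested transcripts in each animal, by condition (horizontal axis, replicates 1 to 4 from left to right), with the mean and SD beside the points. Open points are animals in which fewer than 0.5 of the spots of every kept probe were well above background, which for *Crhr1* are 9 of 20, and *Crhr1*, *Oxt* and *Trh* are the transcripts whose SNS points stand highest.

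Of the magnocellular peptides, *Oxt*, which encodes oxytocin and its neurophysin, was higher in SNS than in BNS. Its probe lies on chromosome 3 (rn4, chr3:118194269-118194328, plus strand), and that of *Avp*, for vasopressin, lies nearby on the minus strand (rn4, chr3:118205082-118205141). They are shown together because the genes are related neighbours, and a reader can compare the letters that each was measured by:
Oxt probe: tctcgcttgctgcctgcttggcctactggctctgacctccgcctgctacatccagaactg
Avp probe: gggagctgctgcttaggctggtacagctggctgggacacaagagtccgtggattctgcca

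The *Oxt* levels were 9.74, 9.81, 10.38 and 10.69 in SNS replicates 1 to 4, 9.53, 9.50, 9.45 and 9.54 in BNS, and 9.85, 9.43, 9.70 and 10.02 in BYS. They were 9.11, 9.58, 9.85 and 9.92 in BYA and 9.88, 9.91, 9.63 and 9.38 in BYP. The BNS animals lay close together and below every SNS animal, while the other 3 conditions overlapped SNS. SNS replicates 1 and 2 shared an array and lay below replicates 3 and 4, which shared the other.

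*Oxt* fell by 0.65 (SE 0.20) on the log2 scale, 1.57-fold, in BNS against SNS (limma adjusted p = 0.0238). The differences from SNS were -0.41 in BYS (adjusted p = 0.144), -0.54 in BYA (adjusted p = 0.0522) and -0.46 in BYP (adjusted p = 0.101), and none passed. In 7 of 23 alternatives the BYA difference did pass. Among them were 4 of the 8 that left out 1 animal (without SNS replicate 1 or 2, or BYA replicate 3 or 4, adjusted p from 0.0268 to 0.0417). Others were the fit without dye (adjusted p = 0.0482) and loess with Aquantile (-0.79, adjusted p = 0.0259). That last scaling used only the 9 arrays that held 2 animals of this series, so BYA replicates 3 and 4 were absent from it. The BYP difference passed with the common median (-0.71, adjusted p = 0.0374). Over the 5 conditions *Oxt* did not pass (limma F, adjusted p = 0.110). The call in BNS was lost without SNS replicate 3 (-0.56, adjusted p = 0.0690), without SNS replicate 4 (-0.47, adjusted p = 0.0846) and without BNS replicate 2 (-0.64, adjusted p = 0.0519), and with the processed signals of the extraction software the difference was -0.24 (adjusted p = 0.652). With array as a random block its adjusted p was 0.0662, and the methods' t-test did not call it even at its own unadjusted threshold. On 1 array the local background of the single *Oxt* spot was 628 in BYS replicate 1 and 241 in BYS replicate 2 against 28.5 to 75 elsewhere, and with the median background of the channel in place of it the BNS difference was -0.72 (adjusted p = 0.0384).

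*Avp* passed no test. Its levels were 9.50, 9.58, 10.64 and 10.41 in SNS, 10.36, 9.87, 9.88 and 11.60 in BNS, and 9.63, 11.71, 10.84 and 10.15 in BYS. They were 9.96, 10.72, 9.79 and 10.12 in BYA and 10.57, 10.09, 10.56 and 10.14 in BYP. The highest animals were BYS replicate 2 and BNS replicate 4, and SNS replicate 1 was the lowest, a 4.61-fold span in which all conditions overlapped. The means ran from 10.58 ± 0.90 in BYS to 10.04 ± 0.58 in SNS, with adjusted p between neighbours in the order from 0.856 to 0.995.

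Both lateral hypothalamic peptides overlapped in all conditions. *Hcrt*, the precursor of the orexins, which hold up wakefulness, stood at 8.28, 8.56, 9.21 and 8.74 in SNS replicates 1 to 4, 8.96, 8.66, 8.68 and 8.82 in BNS, and 8.51, 8.92, 8.55 and 8.95 in BYS. They were 8.32, 8.48, 8.81 and 8.76 in BYA and 10.37, 8.98, 8.42 and 8.67 in BYP. BYP replicate 1 was the highest of the 20 animals for *Hcrt* and, at 15.75, for *Pmch*. *Pmch*, the precursor of the feeding peptide melanin-concentrating hormone, stood at 14.20, 14.12, 14.95 and 14.59 in SNS replicates 1 to 4, 15.26, 14.68, 13.56 and 14.97 in BNS, and 14.08, 15.53, 14.89 and 14.75 in BYS. They were 14.30, 15.25, 15.45 and 14.68 in BYA and 15.75, 14.50, 13.40 and 15.28 in BYP. BYP held both the lowest and the highest *Pmch* animal, a 5.11-fold span. Neither passed over the 5 conditions (limma F, adjusted p = 0.595 for *Hcrt* and 0.886 for *Pmch*), and neither had a comparison below an adjusted p of 0.309.

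*Trh*, which encodes thyrotropin releasing hormone, was evenly high in SNS, with levels of 11.55, 11.65, 11.65 and 11.503. The levels were 11.07, 10.92, 11.47 and 10.81 in BNS, 11.47, 10.96, 11.09 and 11.45 in BYS, 11.13, 11.02, 11.62 and 9.87 in BYA, and 11.38, 11.04, 11.18 and 11.19 in BYP. All SNS animals lay above all BNS, BYS and BYP animals. BYA replicate 3, whose channel is uncertain, was the 1 animal of the other conditions within the SNS range. *Trh* fell by 0.68 (SE 0.22) on the log2 scale, 1.60-fold, in BYA against SNS (limma adjusted p = 0.0266). This call was lost in 9 of 23 alternatives. It rests in part on BYA replicate 4, the lowest animal, without which the difference was -0.37 (adjusted p = 0.0847). It was also lost without SNS replicate 2 (-0.60, adjusted p = 0.0743) or replicate 4 (-0.66, adjusted p = 0.0559) and with array as a random block (-0.71, adjusted p = 0.0681). The others were the common median, the processed signals, the 8 animals alone and the methods' t-test with and without adjustment. The differences from SNS were -0.52 in BNS (adjusted p = 0.0849), -0.35 in BYS (adjusted p = 0.254) and -0.39 in BYP (adjusted p = 0.190). In 4 of 23 alternatives each, the BNS and BYP differences did pass: the common median (-0.85 and -0.83, adjusted p = 0.0483 and 0.0368), loess with Aquantile (-0.52 and -0.39, adjusted p = 0.0052 and 0.0230), the 8 animals alone (adjusted p = 0.0207 and 0.0336) and the methods' t-test at its own threshold. The BYS difference passed with loess and Aquantile (adjusted p = 0.0429).

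For the 3 transcripts with a call, the 250 bases before the RefSeq start (GRCr8) were read for 3 motifs on both strands: AGAACA, the core bound by the glucocorticoid receptor, AGGTCA, the core bound by several nuclear receptors, and TGACG, the core of the cAMP response element. Of 33469 windows of this length in the reference table, 17.5% held the first, 14.1% the second and 18.2% the third. A window was found for 8 of the 10 genes. Matches on either strand are in capitals:
Oxt (chr3:138235504-138235753, plus strand): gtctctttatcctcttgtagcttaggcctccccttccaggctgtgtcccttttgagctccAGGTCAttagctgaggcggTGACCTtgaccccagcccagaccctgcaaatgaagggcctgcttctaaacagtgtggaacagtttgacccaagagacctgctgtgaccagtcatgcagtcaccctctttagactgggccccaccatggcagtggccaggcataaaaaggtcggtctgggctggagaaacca
Trh (chr4:126301763-126302012, minus strand): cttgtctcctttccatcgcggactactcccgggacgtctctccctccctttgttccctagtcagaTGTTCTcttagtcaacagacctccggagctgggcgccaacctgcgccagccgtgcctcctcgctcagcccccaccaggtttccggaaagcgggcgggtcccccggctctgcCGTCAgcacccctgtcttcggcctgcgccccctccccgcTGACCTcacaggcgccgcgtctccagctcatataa
Crhr1 (chr10:89539959-89540208, plus strand): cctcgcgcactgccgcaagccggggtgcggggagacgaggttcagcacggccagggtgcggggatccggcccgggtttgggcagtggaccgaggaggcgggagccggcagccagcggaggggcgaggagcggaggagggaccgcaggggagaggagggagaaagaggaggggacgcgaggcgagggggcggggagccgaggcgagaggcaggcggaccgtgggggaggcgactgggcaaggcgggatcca
The *Oxt* window held AGGTCA in 2 places and neither of the other motifs. The *Trh* window held each motif once, and the *Crhr1* window, 75.2% G or C, held none, as did that of a second *Crhr1* start nearby. No 2 matches overlapped in these windows. These are matches of letters, not bound sites.

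Prenatal betamethasone without spasms, BNS against SNS, asks whether the priming alone leaves a mark on these transcripts. It called 2 of 8 members, both lower (*Crhr1* and *Oxt*), while 28.6% of all genes were called in this comparison. Against SNS, 1 of 8 members was called in BYS (background 27.1%), 2 of 8 in BYA (*Crhr1* and *Trh*, background 31.3%) and 1 of 8 in BYP (background 28.9%), all lower. The members were thus called no more often than the genes at large. Markers of other tissue moved in the same comparisons. Of 3 red blood cell genes, *Hba-a1* and *Alas2* were called higher than SNS in BNS (0.71 and 0.99, adjusted p = 0.0015 and 0.0168), BYS and BYA and neither in BYP, while *Hbb* was called in none. The summed log2 level of the 3 was 41.0 to 41.9 in SNS and 40.9 to 41.8 in BYP. It was 41.7 to 43.98 in the BNS animals, 41.2 to 43.3 in the BYS animals and 41.9 to 44.5 in the BYA animals. Of 2 choroid plexus genes, *Ttr* was called in none and *Folr1* was called lower in BYA (-0.86, adjusted p = 0.0170), with medians of -0.80 in BNS, -0.81 in BYS, -0.64 in BYA and -0.90 in BYP. Their summed level was 21.2 to 22.6 in SNS, above all BNS animals (19.4 to 20.9) and all BYP animals (19.4 to 20.9), with overlap in BYS (19.2 to 21.3) and BYA (19.9 to 21.4). Their part in the differences of the members was not tested.

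The exact permutation test of 4 animals against 4 has a smallest two-sided p of 0.0286, which it gives whenever the groups do not overlap. Against SNS it gave that value for *Crhr1* in BNS, BYS and BYP, for *Oxt* in BNS and for *Trh* in BNS, BYS and BYP. Limma did not call these *Trh* differences. The share of all genes that reach this value was not computed, while limma called 27.1% to 31.3% of all genes against SNS. At an unadjusted limma p below 0.05 there were 7080 of 17083 genes in BNS, 6862 in BYS and 7087 in BYP. Differences from SNS were thus common among all genes, and the lack of overlap is not shown to be particular to these members.

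Spasms, in BYS against BNS, left no called member. The log2 differences were 0.25 for *Oxt*, 0.19 for *Pmch*, 0.18 for *Trh*, 0.16 for *Avp*, 0.15 for *Crh*, 0.04 for *Crhr1*, -0.05 for *Crhbp* and -0.05 for *Hcrt*. The lowest adjusted p was 0.909 (limma), none of the 8 had an unadjusted p below 0.05, and the methods' t-test called none. The background here was 0.0293%, or 5 of 17086 genes, so few genes of any kind were called. The 95% interval of *Crh* ran from -0.66 to 0.96, and that of *Crhr1* from -0.30 to 0.38.

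The treatments left none of the 8 called either. In ACTH against saline after spasms, BYA against BYS, *Avp* had the largest difference (-0.44, adjusted p = 0.831), *Trh* followed (-0.34, adjusted p = 0.739) and *Crh* stood at -0.20 (95% interval from -1.01 to 0.61), with a background of 0% of genes called and 1379 of 17086 at an unadjusted p below 0.05. In PMX53 against saline, BYP against BYS, *Hcrt* had the largest (0.38, adjusted p = 0.808) and *Crh* stood at -0.02 (95% interval from -0.83 to 0.79), with a background of 0.0351%. The *Hcrt* difference was -0.07 without BYP replicate 1. No member was called between BYP and BYA (background 0.158%), BYA and BNS (background 0.117%) or BYP and BNS (background 1.5%), and no member had an unadjusted p below 0.05 in any of these 5 comparisons.

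**Figure D2:**
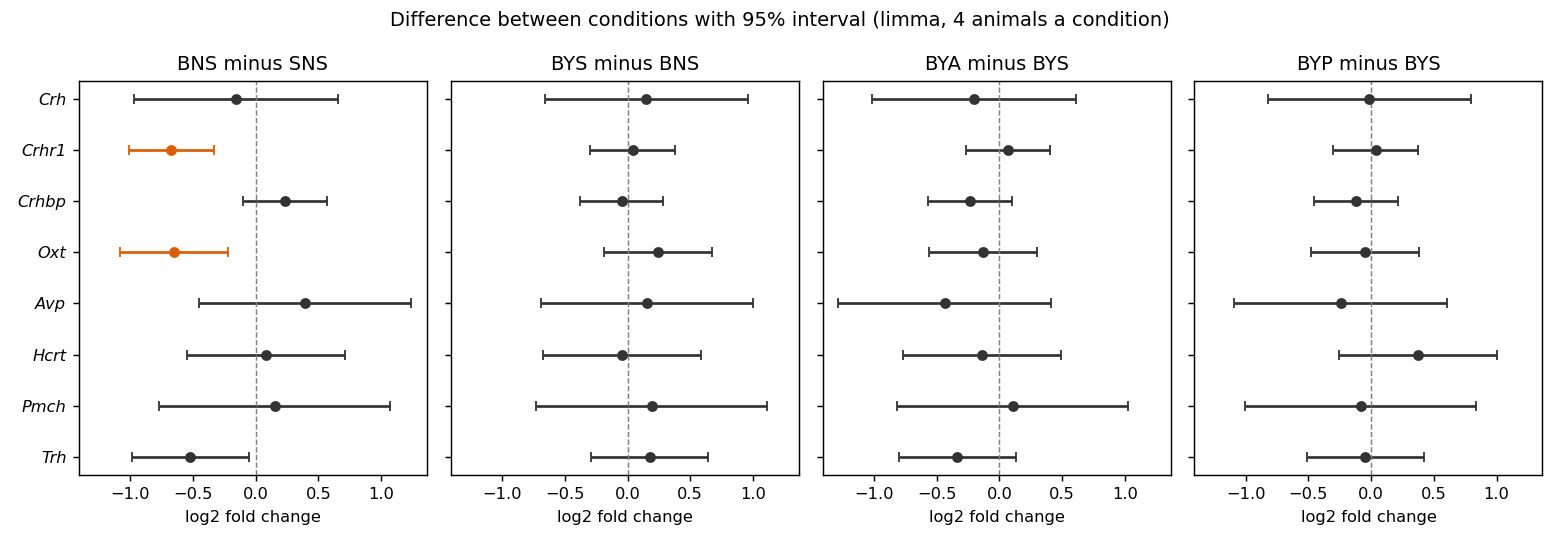
Log2 fold change (horizontal axis) of the 8 tested transcripts (rows) in 4 comparisons, with the 95% interval from the limma fit of all 20 animals. Orange marks an adjusted p below 0.05, which in these 4 comparisons holds for *Crhr1* (-0.67) and *Oxt* (-0.65) in BNS minus SNS.

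Within conditions, the peptides ranked among the most variable genes. The SD between animals of a condition was 0.69 for *Pmch*, 0.64 for *Avp*, 0.59 for *Crh*, 0.46 for *Hcrt* and 0.38 for *Trh* on the log2 scale, against a median of 0.20 over 16299 genes with no missing value. The share of genes with a lower SD was 99.3% for *Pmch*, 99.1% for *Avp*, 98.8% for *Crh*, 96.6% for *Hcrt* and 92.7% for *Trh*. It was 83.9% for *Oxt*, 72.2% for *Crhr1* and 66.3% for *Crhbp*. The relations below use deviations, which are the log2 levels after the mean of the condition and the dye effect are removed.

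The spread of *Crh* followed the oligodendrocyte markers. The mean deviation of *Mbp*, *Mobp* and *Mog*, genes of myelin and of the cells that make it, correlated with that of *Crh* with Pearson r = 0.95 and Spearman rho = 0.95 over 20 animals (each with a permutation p of 1e-05, the smallest that 100000 permutations within conditions can give, adjusted p = 0.00096). Of 96 relations of the 8 members with 12 marker lists it was the 1 that passed by either measure. Without SNS replicates 1 and 3, the animals farthest from the median of *Crh*, r was 0.94, and leaving out any condition gave r from 0.95 to 0.96. As the difference between both animals of an array, which removes slide and array, r was 0.98 and rho 0.97 over 9 arrays (exact permutation p = 2.76e-05 and 0.000165).

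In 5 of 5 conditions the animal highest in *Crh* was also the highest in the marker mean, and in 3 of 5 the lowest animals coincided. In SNS the log2 level of *Crh* ran from 7.67 in replicate 3 to 9.97 in replicate 1, and that of *Mog*, a protein of the outer face of myelin, from 7.93 to 10.55 in the same animals. In BYA, *Crh* ran from 8.31 in replicate 2 to 9.29 in replicate 1, and *Mog* from 7.85 to 9.998. Taken singly, *Mog* (r = 0.95) and *Mobp* (r = 0.88) followed *Crh*, and *Mbp* did not (r = -0.31). For the other 7 members the list gave r between -0.40 and 0.09, none passing.

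By likeness over all 16298 other genes with no missing value, the 3 nearest to *Crh* were *Mag*, a myelin glycoprotein gene outside the list (r = 0.95), *Gpr83*, a receptor gene (r = 0.95), and *Mog*, and 20 genes had an r above 0.9. These are descriptions over 20 animals. When the marker mean was added to the fit as a covariate, an alternative chosen after seeing the data, the standard error of the *Crh* differences was 0.14 in place of 0.39. *Crh* was still not called over the 5 conditions (limma F, adjusted p = 0.215) or in any of the 10 comparisons, of which BYP against BYA was the largest (0.38, adjusted p = 0.240). The composition of the dissected tissue as the source of this relation was not tested.

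**Figure D3:**
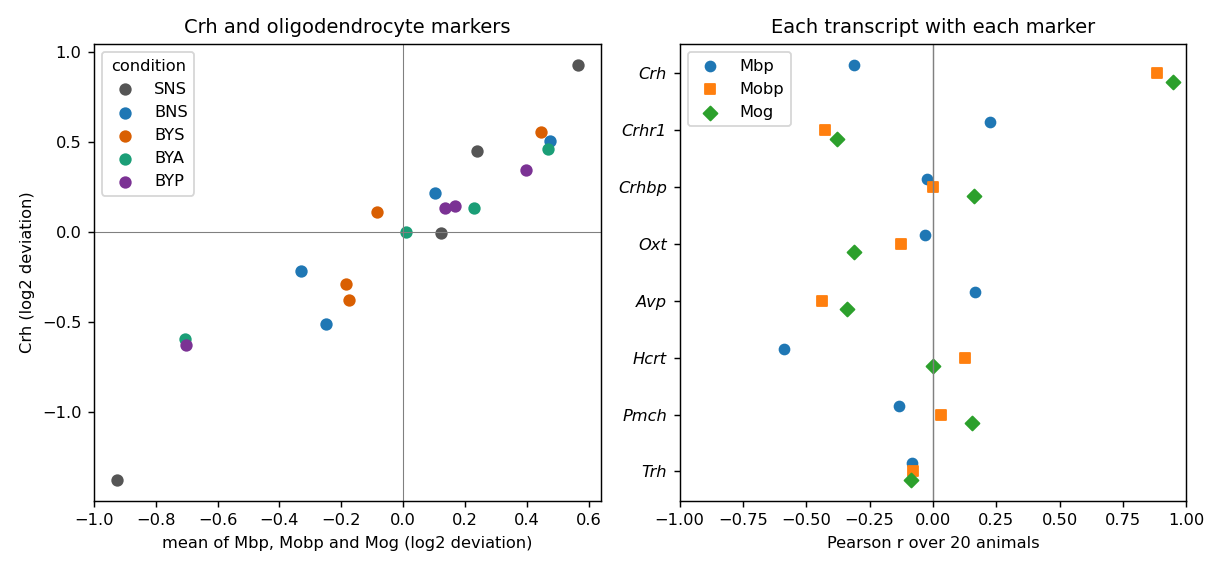
Left, the deviation of *Crh* from the condition mean (vertical axis, log2) against the mean deviation of 3 oligodendrocyte markers (horizontal axis, log2), 1 point per animal, with the dye effect removed; the points lie along a line with r = 0.95. Right, Pearson r over 20 animals of each transcript (rows) with each marker, where *Crh* stands apart on *Mobp* and *Mog* but not on *Mbp*.

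The neighbouring peptides, as a check on dissection, moved together less. *Hcrt* and *Pmch*, whose neurons share the lateral hypothalamus, had r = 0.69 (permutation p = 0.00699) and rho = 0.60, which did not pass after adjustment over the 28 pairs of members (adjusted p = 0.196 for r and 0.173 for rho). Without BYP replicates 1 and 3 r was 0.44, so the relation rests in part on those animals, and within arrays it was 0.71 (exact permutation p = 0.0209, n = 9). *Oxt* and *Avp*, whose neurons share the paraventricular and supraoptic nuclei, had r = 0.05 and rho = 0.07 (adjusted p = 0.931 and 0.896). *Oxt* and *Hcrt* had r = 0.49 and rho = 0.63 (adjusted p = 0.568 and 0.173), with r = -0.11 within arrays. None of the 28 pairs passed.

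**Figure D4:**
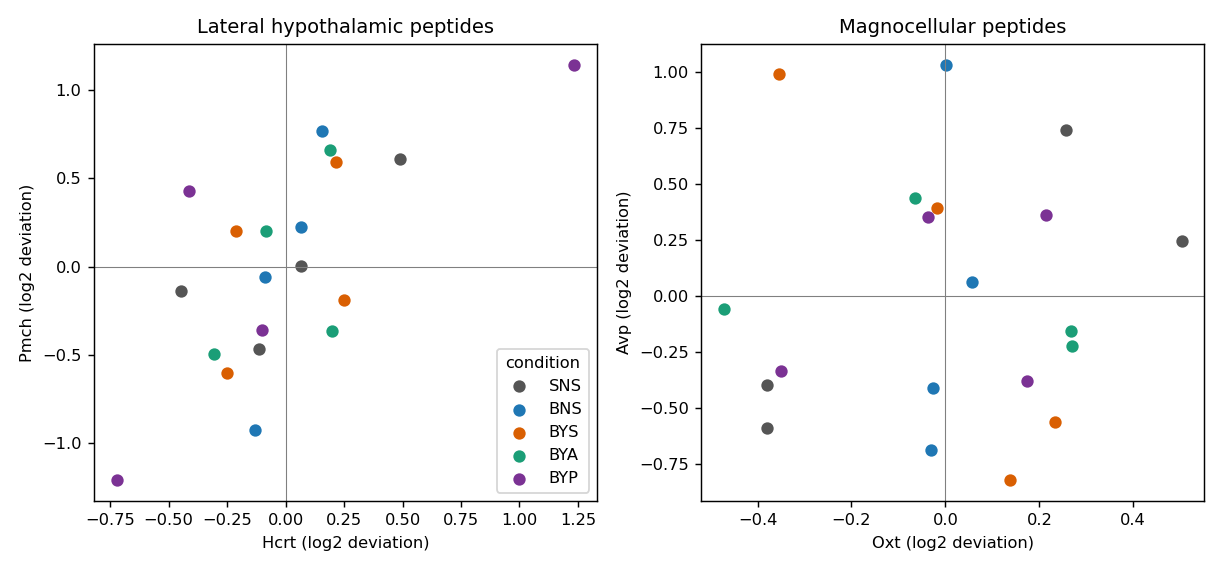
Deviations from the condition mean (log2, dye effect removed) of *Pmch* against *Hcrt* (left) and of *Avp* against *Oxt* (right), 1 point per animal and colour per condition. BYP replicate 1 is the upper right point on the left (r = 0.69 over 20 animals), and the points on the right show no line (r = 0.05).

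Against the marker lists, *Pmch* ran opposite to the 11 arcuate genes with no missing value (r = -0.69, rho = -0.62) and *Avp* opposite to the 3 paraventricular and supraoptic genes outside the members, *Sim1*, *Pou3f2* and *Arnt2* (r = -0.56, rho = -0.62). *Crh* ran with those 3 (r = 0.69, rho = 0.57) and with 3 suprachiasmatic genes (r = 0.80, rho = 0.61), and opposite to 4 ventromedial genes (r = -0.68, rho = -0.58) and the arcuate genes (r = -0.55, rho = -0.65). None of these passed over the 96 relations (adjusted p from 0.122 to 0.228). Without SNS replicates 1 and 3 the r of *Crh* was 0.41 with the paraventricular genes, 0.54 with the suprachiasmatic and -0.50 with the ventromedial. Between conditions, 2 of 7 paraventricular and supraoptic genes were called lower than SNS in each betamethasone condition, a share near the background of 27.1% to 31.3% of all genes. Of these, *Pou3f2*, a transcription factor of the neurons of this nucleus, was called in all 4 (-0.69 in BNS, adjusted p = 0.000917). The other was *Oxt* in BNS, *Trh* in BYA and the transcription factor gene *Arnt2* in BYS (-0.38, adjusted p = 0.00829) and BYP (-0.43, adjusted p = 0.00347). The median of the 7 ran from -0.45 to -0.34, against -0.04 to -0.03 over all genes, and 4 of the 7 are members.

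The nearest genes by likeness were *Npw*, *Neto1* and *Gng13* for *Pmch* (r from 0.82 to 0.91), *Smco3*, *Itga8* and *Ppp4r4* for *Avp* (r from 0.75 to 0.83), and *Myl9*, *Pdcd10* and *Pomk* for *Hcrt* (r from 0.82 to 0.85). For *Oxt* they were *Krtap1-5*, *Gpr21* and an unnamed probe (r from 0.89 to 0.91), and for *Trh* they were *Hcar2*, *Washc1* and *Tbc1d22b* (r from 0.87 to 0.89).

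**Figure D5:**
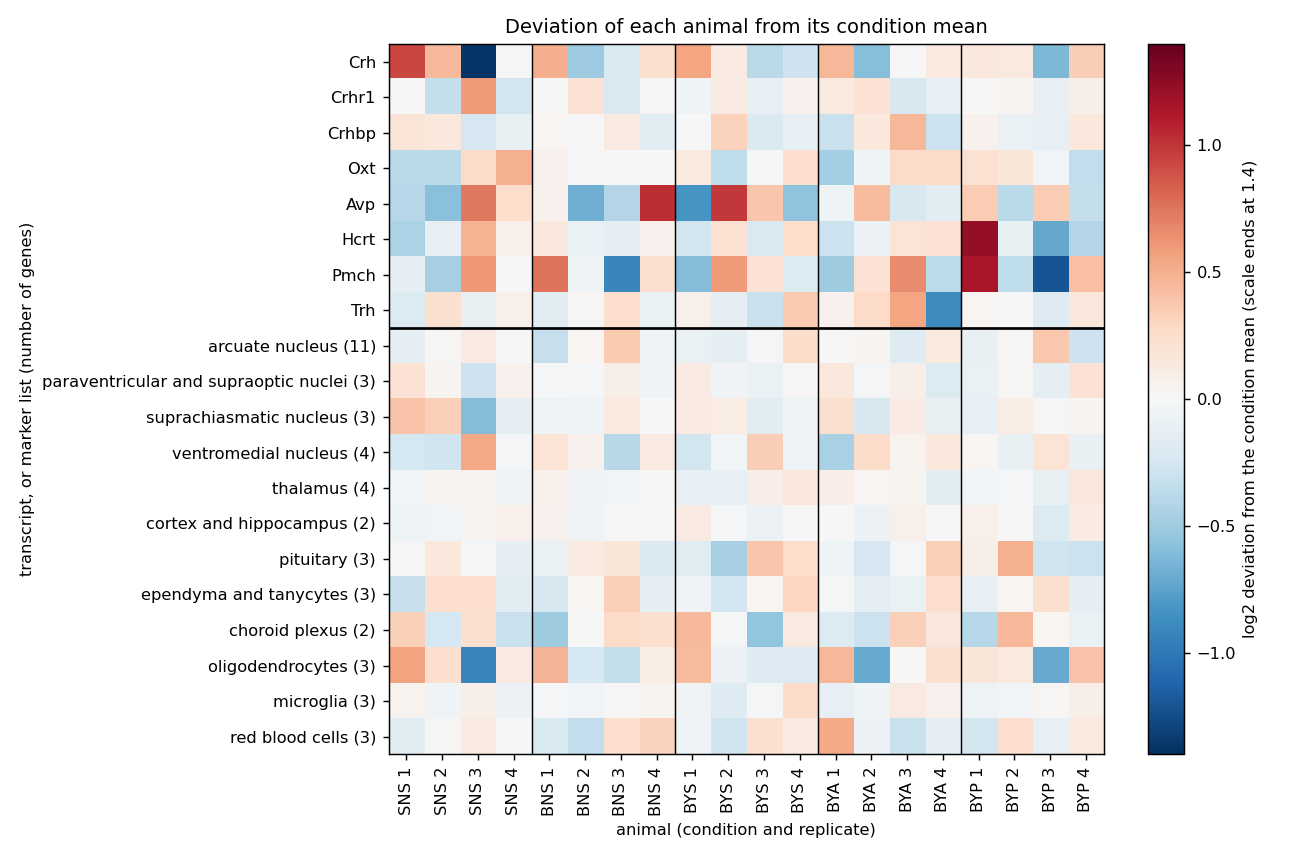
Deviation of each animal (columns) from its condition mean, dye effect removed, for the 8 transcripts (rows above the line) and the mean of each marker list without the members (rows below it, number of genes in brackets). The colour scale is log2 from -1.4 to 1.4, and the *Crh* row and the oligodendrocyte row share their pattern, with SNS replicate 3 lowest in both.

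The receptors of the neighbouring peptides were tested where they passed the filter, in 6 of 9 cases. *Mchr1*, the receptor of melanin-concentrating hormone, was the 1 with a call: lower than SNS in BNS (-0.54, adjusted p = 0.00186) and BYS (-0.37, adjusted p = 0.0205), where 28.6% and 27.1% of all genes were called. *Avpr1a*, *Hcrtr1*, *Hcrtr2*, *Trhr* and *Trhr2* had none, and the median difference of the 6 from SNS ran from -0.13 to 0.05 over the 4 betamethasone conditions, against -0.04 to -0.03 over all genes. *Oxtr*, *Avpr1b* and *Avpr2* were not tested.

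In the pathway downstream of the CRH receptors and in its glucocorticoid control, 14 of 15 genes were tested. Against SNS, 3 were called higher and 2 lower in BNS, 3 and 1 in BYS, 4 and 1 in BYA, and 6 and 2 in BYP, where the background was 28.6%, 27.1%, 31.3% and 28.9% of all genes. The median of the 14 ran from 0.01 in BNS to 0.24 in BYP, against -0.04 over all genes in both. *Prkaca*, the catalytic subunit of protein kinase A through which CRHR1 signals, was higher in all 4 (0.70 in BNS, adjusted p = 7.22e-05, and 0.79 in BYA, adjusted p = 2.22e-05). *Nr3c1*, the glucocorticoid receptor, was chosen after its values were seen and was higher in BNS (0.34, adjusted p = 0.00825), where *Creb1*, the factor that binds the cAMP response element, was lower (-0.59, adjusted p = 0.00739). *Crtc1*, a coactivator of CREB, was lower there too (-0.49, adjusted p = 0.0038). *Prkacb*, another catalytic subunit, was higher in BYP than in SNS (1.36, adjusted p = 0.0090), and *Nr4a1*, an immediate early gene, was higher in BYA than in SNS (0.82, adjusted p = 0.0071). *Fkbp5*, a chaperone that glucocorticoids induce, was higher in BYP than in SNS (1.04, adjusted p = 0.00427) and than in BNS (1.26, adjusted p = 0.0167), and *Crem*, a cAMP-responsive factor, was higher in BYP than in BNS as well (0.66, adjusted p = 0.0280). These were the 2 genes of the list called between betamethasone conditions, in a comparison with a background of 1.5%.

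Among 16 genes that process and store peptides, 2 were called higher and 2 lower than SNS in BNS, 3 and 1 in BYS, 3 and 2 in BYA and 3 and 2 in BYP, and none between betamethasone conditions. The median of the 16 ran from -0.26 in BNS to -0.11 in BYS, against -0.04 and -0.03 over all genes. *Cpe*, the carboxypeptidase that trims peptide ends, was higher in all 4 (1.00 to 1.03), as was the protease gene *Furin* (0.53 in BYS, adjusted p = 0.00316, to 0.79 in BYP, adjusted p = 0.00011). *Trhde*, which degrades TRH, was lower in all 4 (-0.67 in BYA, adjusted p = 0.000514), where *Trh* itself was called in 1. *Pam*, which amidates oxytocin, vasopressin, CRH and TRH, was lower in BNS (-0.75, adjusted p = 0.0234). As the background in comparisons with SNS was 27.1% to 31.3%, these counts lay near that of all genes.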

How the data were processed

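RNA of the arcuate nucleus was hybridised to Agilent 4x44k two-colour arrays, 1 animal per channel. The deposited files hold the mean signal and median local background of each spot as intensity on a linear scale, per the file headers (Feature Extraction 11.5.1.1, where the submitters' processing notes give 10.7.3.1), with probe coordinates on rn4. The deposited processed signals, also intensity, served as an alternative. In all, 82 columns of channels of another series were not used.

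Of 44254 spots, 42877 were not controls. The background was corrected by normexp with an offset of 50, and quantile normalization brought the 20 channels to 1 distribution of log2 values. Outlier spots (1.18%) were then dropped, and the spots of each of 30367 probes were averaged. A probe was kept if, in 1 condition or more, each of the 4 animals had 0.5 or more of its spots well above background. A gene is the mean of its kept probes without a missing value (19883 probes kept, 17086 genes). Where every kept probe had a missing value, the probe with the fewest was taken. Probe names were brought up to date through RefSeq for 18643 probes (61.4%). Levels were fitted with limma 3.58.1 (R 4.3.3) on condition and dye over all 20 animals, two-sided, with Benjamini-Hochberg adjustment over all genes at a threshold of 0.05. The methods' t-test, array as a random block (consensus correlation 0.365), other scalings, filters and left-out animals were alternatives. Relations between genes used 100000 permutations within conditions over 16299 genes without missing values. The procedure was tested on simulated data in which channels were drawn independently, so this could not show the effect of a shared array. The number of arrays limits the precision.

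In all, 1 marker of the oligodendrocyte list is not reported here and entered no list value. The members and lists were chosen with earlier results of these data known. All members are named, with the 3 genes most like each peptide and, from each list, up to 3 called genes with the largest fold change. Replicate numbers were checked for pairing: deviations of same-numbered animals had a mean correlation of 0.0031 (-0.239 to 0.280 over 40 pairs), against -0.00075 in 120 other pairs. No pairing by number was seen, and a mean over all genes, with condition and dye removed, cannot exclude it.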

Additional observations from a re-analysis of the deposited data

Results flagged for a closer look

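The mean log2 level of the 3 oligodendrocyte markers in BYS replicate 1 was 10.05, apart from the other BYS animals, of which the nearest was at 9.48. Its gap to that animal was 0.850 of the range of the 4 animals, just past the critical value at 95%. Of 45 groups of 4 animals tested in this way it was the 1 that passed, where chance gives 2.25. BYS replicate 1 was also the highest BYS animal in *Crh*, at 9.59.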

How the results depend on the processing

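The 6 comparisons among betamethasone conditions gave 0 called members under every alternative, apart from BYP against BYS with the channels brought to a common median, which gave 1. That scaling took the median of all genes to -0.17 in BYP against BYS and 0.15 in BYS against BNS (both near 0 before), took the share of calls that were higher in BNS against SNS from 53.0% to 29.8%, and called 2820 genes against 6 in BYP against BYS. It gave 0 members in BYA and 2 in BYP against SNS (*Oxt* and *Trh*), and 0 over the 5 conditions, and its 2 in BNS were *Oxt* and *Trh*. With the processed signals, the members called against SNS were 1 in BNS (*Crhbp*), 0 in BYS, 0 in BYA and 0 in BYP, and 0 over the 5 conditions. With loess and Aquantile, which lacked BYA replicates 3 and 4, they were 2 in BYS, 2 in BYP and 2 over the 5 conditions. With array as a random block they were 1 in BNS, 0 in BYS, 1 in BYA, 0 in BYP and 0 over the 5 conditions, with 2595 genes called in BNS against SNS in place of 4881. Fitting only the 8 animals gave 0 in BYA. The methods' t-test gave 1 in BNS (*Trh*, and neither *Crhr1* nor *Oxt*), 0 in BYS and 0 in BYA at its own threshold. After Benjamini-Hochberg adjustment it gave 0 in BNS, BYS, BYA and BYP. The causes were not tested.

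With the replicate block, 2 members were called in BNS, 1 in BYS, 3 in BYA (*Oxt* added, -0.54, adjusted p = 0.0460) and 1 in BYP against SNS, with 5093 genes called in BNS against SNS.

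Leaving out each animal in turn gave 1 to 2 members in BNS and 1 to 3 in BYA against SNS, and 0 to 2 over the 5 conditions. The log2 differences then ran from -0.65 to 0.18 for *Crh* in BNS against SNS. In BYS against BNS they ran from -0.20 to 0.52 for *Avp*, -0.0481 to 0.33 for *Crh*, -0.16 to 0.0234 for *Crhbp*, -0.0360 to 0.11 for *Crhr1*, -0.13 to 0.0445 for *Hcrt* and -0.14 to 0.47 for *Pmch*. In BYA against BYS *Crh* ran from -0.37 to 0.00974, and in BYP against BYS *Crh* ran from -0.15 to 0.21 and *Hcrt* from -0.0652 to 0.63.

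Other changes of sign were among values that passed no test. *Crh* in BNS against SNS was 0.0112 with the processed signals and 0.0248 on 1 of its probes, and in BYS against BNS it was -0.0503 with the marker mean as a covariate. *Crh* in BYP against BYS was 0.0355 with median scaling, 0.0554 with loess, 0.0212 on 1 probe and 0.17 with the covariate. *Crhbp* in BYS against BNS was 0.0178 with loess, *Crhr1* there was -0.67 with median scaling, and *Oxt* in BYS against SNS was 0.34 with the processed signals. The correlation of *Oxt* and *Avp* was -0.00768 without SNS replicate 4 and BYA replicate 1. The covariate and 2 other background corrections were chosen after seeing the data. Levels of *Crhr1*, *Crhr2* and *Ucn* are limited by their signal over background.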
